A study of Mus musculus with 6 samples.

Results

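The promoters of 35 nuclear genes for subunits of respiratory complex I were examined for CDK6 binding, among 22028 protein-coding genes of the mouse annotation (GENCODE M21, genome build mm10). The members were taken by gene symbol and not by their signal: 6 core subunits, 28 accessory subunits of the matrix arm and the membrane arm, and the acyl carrier protein Ndufab1. A promoter began 2000 bp upstream of an annotated transcript start of the gene and ended 200 bp past it. Binding was read from 4 deposited peak lists, 2 for CDK6-WT and 2 for CDK6-K43M. Both groups were pre/pro-B cell lines of the mouse with the genotype Cdk6-/-, transformed by BCR-ABL(p185), in which an HA-tagged CDK6 was overexpressed and precipitated with an anti-HA antibody. CDK6-WT is the wildtype kinase and CDK6-K43M carries a substitution that makes it kinase inactive. The cells of both groups lack endogenous CDK6, so any CDK6 precipitated is the overexpressed tagged protein. The series holds no anti-HA library of cells without the tag, so peaks that are not due to CDK6 cannot be told apart. The labels do not say whether the 2 libraries of a variant came from separate cultures. The 2 input libraries of the series were not analysed here.

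Complex I, or NADH:ubiquinone oxidoreductase, is the entry point of electrons from NADH into the mitochondrial electron transport chain. Its matrix arm carries the flavin and the iron-sulfur clusters that pass electrons to ubiquinone, and its membrane arm pumps protons into the intermembrane space. The core subunits do the catalysis, while the accessory subunits surround and stabilise them. All members studied here are transcribed in the nucleus, whereas some membrane subunits are encoded by the mitochondrial genome. CDK6 has no DNA-binding domain of its own and reaches chromatin through other proteins, and the comparison of the variants asked whether kinase activity changes where it is found.

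Short stretches of the promoters are printed first, because their motifs and positions recur in the results. The letters are from the mouse reference (GRCm38.p6, the build of the coordinates), 5′ to 3′ on the strand of the gene, and capitals mark the motif found. Positions are counted from the nearest annotated transcript start, whose base is position 1, and the base before it is -1. The motif of the zinc finger protein YY1, searched as AAGATGGCG on both strands within 100 bp of the strongest summit of a promoter, stood out by its share among the members. It is shown with 10 bases to either side for the core subunits Ndufs7 (chr10:80249463-80249491, plus strand) and Ndufs8 (chr19:3913051-3913079, minus strand), and for the accessory subunits Ndufs4 (chr13:114388041-114388069, minus strand), Ndufs6 (chr13:73328431-73328459, minus strand), Ndufa9 (chr6:126849097-126849125, minus strand) and Ndufc1 (chr3:51408915-51408943, minus strand).
Ndufs7: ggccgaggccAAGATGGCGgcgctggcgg
Ndufs4: tgcctacaggAAGATGGCGgcggtctcaa
Ndufs6: ggtcaccggcAAGATGGCGgcggtgctga
Ndufa9: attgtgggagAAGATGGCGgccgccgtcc
Ndufc1: cctgcggaacAAGATGGCGccgtccgtag
Ndufs8: tgtacgctgtCGCCATCTTtgcagtattc

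The core motif of NRF-1, a transcription factor of nuclear genes for respiration, was searched as CGCATGCG, which reads the same on both strands. It is shown for the 3 members that carried it within 100 bp of the strongest summit, Ndufa8 (chr2:36049330-36049357, minus strand), Ndufa11 (chr17:56717693-56717720, plus strand) and Ndufa13 (chr8:69903322-69903349, minus strand).
Ndufa8: tcgctggagaCGCATGCGcagatggtac
Ndufa11: ctgcactgcgCGCATGCGcgcacgcctt
Ndufa13: atcgaggatgCGCATGCGctctccagca

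The 100 bases before the start are shown for 3 promoters with different binding. Ndufab1 (chr7:122101887-122101986, minus strand) had the highest mean rank of all members present in every list, Ndufa10 (chr1:92473861-92473960, minus strand) was the only one with a region unique to a variant, and Ndufb11 (chrX:20617620-20617719, minus strand) had a peak in a single list. Capitals mark SP1 in Ndufa10 (searched as GGGGCGGGG) and the CCAAT box bound by NFY in Ndufb11. These motifs were searched on both strands, and the stretch of Ndufab1 held none of the 9 motifs. Its GC content was 73.0%, that of Ndufa10 59.0% and that of Ndufb11 52.0%, with 13, 7 and 2 CpG dinucleotides.
Ndufab1: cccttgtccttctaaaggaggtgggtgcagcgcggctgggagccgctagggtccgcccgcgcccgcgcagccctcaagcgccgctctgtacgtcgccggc
Ndufa10: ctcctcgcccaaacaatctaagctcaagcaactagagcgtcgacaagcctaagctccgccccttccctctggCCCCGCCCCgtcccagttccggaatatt
Ndufb11: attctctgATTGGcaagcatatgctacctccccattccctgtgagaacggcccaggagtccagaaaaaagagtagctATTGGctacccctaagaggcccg

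Most complex I promoters carried a peak of both CDK6 variants. In CDK6-WT replicate 1, 34 of the 35 members had a promoter peak, beside 47.0% of all protein-coding genes. In CDK6-WT replicate 2 there were 29 members, beside 40.1%. CDK6-K43M replicate 1 had a peak at all 35 members, beside 48.5%, and CDK6-K43M replicate 2 at 28, beside 39.4%. The variants had the same mean of 31.5 members per list (CDK6-WT SD 3.54, CDK6-K43M SD 4.95, n = 2 libraries each), a difference of 0 (exact two-sided permutation test over the 6 assignments of the libraries, p = 1). With 2 libraries per variant this test cannot give a p below 0.33, and it measures only the spread between these samples, which may be technical. Within replicate 1 CDK6-K43M had 1 member more and within replicate 2 CDK6-WT had 1 more. The 2 replicate 1 lists averaged 34.5 members and the 2 replicate 2 lists 28.5, so that the lists differed more by replicate number than by variant.

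**Figure D1:**
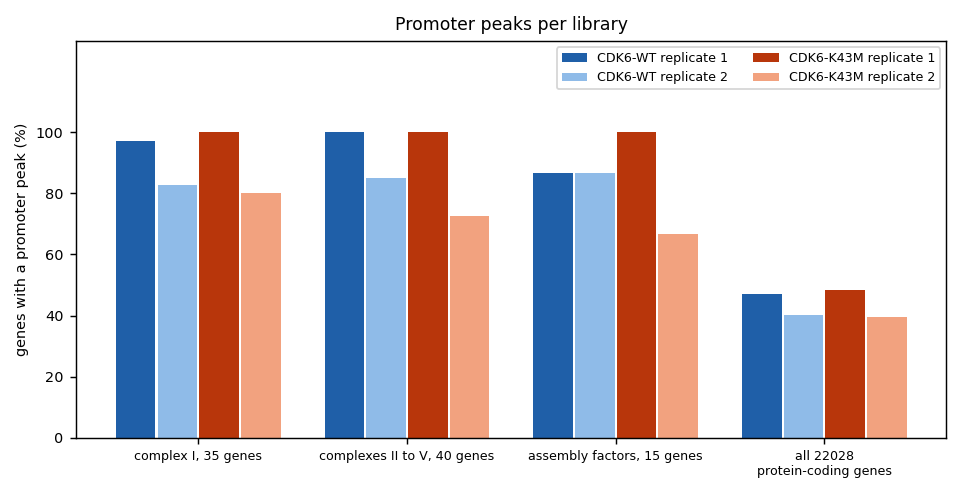
Bars give the share of genes with a promoter peak (percent, from 0) in each of the 4 libraries for complex I, for complexes II to V, for complex I assembly factors and for all protein-coding genes. The complex I bars run from 80.0% to 100% and those of all genes from 39.4% to 48.5%, with the lower bars in replicate 2 for complex I.

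Peaks were merged over the lists where they overlapped by at least 1 bp, and a region was called bound by both variants when at least 3 of the 4 lists held a peak in it, the definition of the study. By this rule 31 of 35 complex I promoters had a region bound by both, beside 41.3% of all protein-coding genes. A peak in all 4 lists was present at 26 members, beside 33.2%. No member had a region unique to CDK6-WT (2 CDK6-WT peaks and none of CDK6-K43M), beside 0.222%, and 1 had a region unique to CDK6-K43M, beside 0.713%. In 3 members the promoter had peaks in replicate 1 of both variants but none in replicate 2, beside 5.67%, and no member showed the opposite, beside 1.28%. These shares over all genes include many genes that these cells may not use, and expression was not measured in these files.

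Peaks were compared by their percentile, the share of the peaks in a list whose −log10 q was the same or lower, so that 100 is the strongest. Over the 26 members present in every list, the median percentile was 93.8 and 71.3 in CDK6-WT replicates 1 and 2, and 95.03 and 61.7 in CDK6-K43M replicates 1 and 2. Over the 7312 genes with a promoter peak in every list the medians were 84.6, 63.9, 86.1 and 62.8, in the same order. The members thus ranked above the median of all such genes in 3 lists, and slightly below it in CDK6-K43M replicate 2. The difference CDK6-K43M minus CDK6-WT was -4.17 percentile points (exact two-sided permutation test, p = 1), made of 1.26 points within replicate 1 and -9.59 within replicate 2.

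The fold enrichment at the summit gave the same order of libraries. Its median over the 26 members was 14.4 and 7.16 for CDK6-WT, and for CDK6-K43M it was 15.8 and 6.13, against 11.2, 6.69, 11.4 and 6.23 over the 7312 genes. CDK6-WT averaged 10.8 (SD 5.13, n = 2) and CDK6-K43M 11.0 (SD 6.84, n = 2), a difference of 0.18 that was far smaller than the spread between the libraries of either variant (exact two-sided permutation test, p = 1). The reads stacked at each summit were recovered from its −log10 p and its fold enrichment. Their median over the 26 members was 43 and 21 reads in CDK6-WT, and 51 and 17.5 in CDK6-K43M, over backgrounds of 1.89, 1.97, 2.46 and 1.80 reads. The recovered depth of CDK6-WT replicate 1 was 0.961 times that of CDK6-WT replicate 2, and the depth of CDK6-K43M replicate 1 was 1.26 times that of CDK6-K43M replicate 2. The part of depth in the difference between the replicate numbers was not tested.

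**Figure D2:**
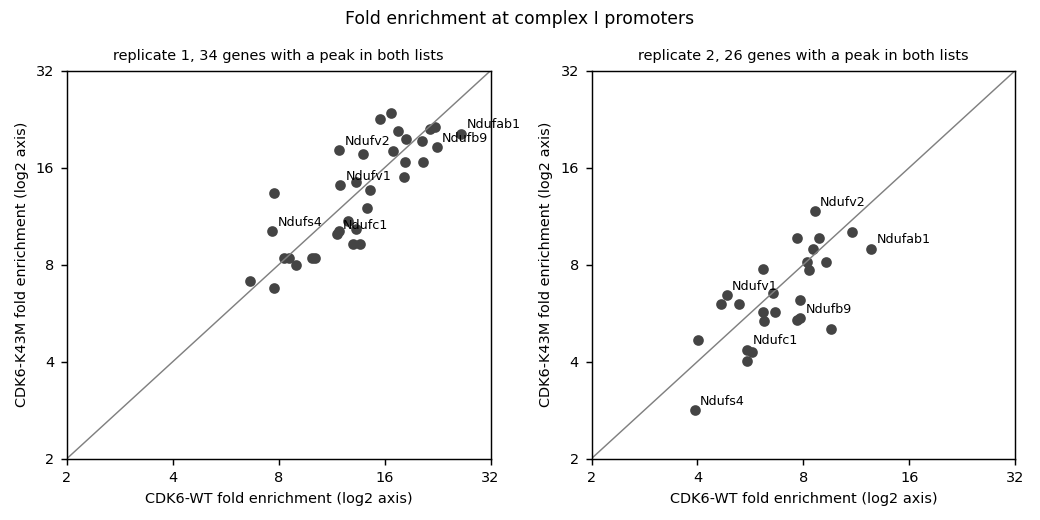
Each point is a complex I gene, with the fold enrichment of its strongest promoter peak in CDK6-WT on the x axis and in CDK6-K43M on the y axis (both on a log2 scale), for replicate 1 (34 genes) and replicate 2 (26 genes). The line marks equal values, and the points lie on both sides of it, with 13 genes above it in replicate 1 and 9 in replicate 2.

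Gene by gene, 14 of 34 members had a higher percentile in CDK6-K43M than in CDK6-WT within replicate 1, where 58.9% of the 10184 genes with both peaks did. Within replicate 2 it was 11 of 26 members, where 49.3% of 7761 genes did. The direction was the same in both replicate numbers for 11 of 26 members, 3 of them higher in CDK6-K43M (Ndufv1, Ndufv2 and Ndufb5) and 8 of them lower (Ndufs1, Ndufs7, Ndufa6, Ndufa7, Ndufc1, Ndufb7, Ndufb9 and Ndufab1). Among the 7312 genes with a peak in every list, 28.9% were higher in CDK6-K43M in both numbers and 22.0% lower. In contrast, replicate 1 ranked above replicate 2 at 28 of 29 members in CDK6-WT (80.3% of all genes with both peaks) and at 27 of 28 in CDK6-K43M (81.3%). The exceptions were Ndufc2 in CDK6-WT, at the percentiles 62.6 and 74.0, and Ndufb8 in CDK6-K43M, at 74.95 and 77.7.

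Of the core subunits of the matrix arm, all 6 had a region bound by both. Ndufv1, which binds the flavin that takes electrons from NADH, had percentiles of 85.5 and 46.5 in CDK6-WT replicates 1 and 2 and of 93.4 and 66.9 in CDK6-K43M. It was 1 of the 2 members with the largest difference in favour of CDK6-K43M in both numbers, 7.89 points in replicate 1 and 20.3 in replicate 2. Ndufv2, its partner with an iron-sulfur cluster, reached 93.2 and 84.1 in CDK6-WT and 99.5 and 94.4 in CDK6-K43M. The differences within the numbers were 6.26 and 10.3 points. Ndufv2 was the only 1 of the 26 members at which both CDK6-K43M percentiles lay above both CDK6-WT percentiles, as at 6.93% of all genes with a peak in every list. No member showed the opposite, beside 3.60%.

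Ndufs1, the largest subunit with several iron-sulfur clusters, had percentiles of 89.1 and 59.9 in CDK6-WT and 82.3 and 56.0 in CDK6-K43M. Ndufs7, which holds the last cluster before ubiquinone, was among the strongest members, with 98.3 and 90.8 in CDK6-WT and 94.7 and 89.0 in CDK6-K43M. All 4 values were high, with little spread between the libraries. Ndufs3, a subunit near the ubiquinone site, had percentiles of 95.5 in CDK6-WT replicate 1 and 97.0 and 82.6 in CDK6-K43M, and no peak in CDK6-WT replicate 2. Ndufs8, another iron-sulfur subunit, had 80.0 and 21.4 in CDK6-WT and 74.4 and 61.7 in CDK6-K43M and was among the 5 with the lowest mean of the 26 members present in every list.

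Of the 9 accessory subunits of the matrix arm, 8 had a region bound by both. Ndufa9, a protein with a dehydrogenase fold where the arms meet, had percentiles of 98.7 and 82.1 in CDK6-WT and 98.2 and 88.3 in CDK6-K43M. Ndufs4, in which mutations cause Leigh syndrome in people, had the lowest mean percentile of the 26 members, 41.1. Its values were 64.8 and 16.8 in CDK6-WT and 81.7 and 0.97 in CDK6-K43M, with 25, 16, 39 and 13 reads at the summit. The 95% Poisson interval of the 13 reads was 6.92 to 22.2, which covers counting error only. The last value was among the weakest peaks of its list, although the CDK6-K43M replicate 1 peak of the same promoter was well above the middle.

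Ndufa2 was the matrix arm member without a region bound by both, with percentiles of 64.1 and 65.7 in the replicate 1 lists and no peak in replicate 2. Ndufv3, a small subunit of the NADH module, lacked a peak in CDK6-K43M replicate 2 and had 83.5, 29.1 and 77.0 in the other lists. Ndufa5 showed the highest value of any member, 99.85 in CDK6-K43M replicate 1 with 96 reads, but 38.5 in CDK6-K43M replicate 2 with 19 reads. Ndufa6, Ndufa7, Ndufa12 and Ndufs6 had a peak in every list, at mean percentiles of 88.4, 69.4, 78.7 and 77.1.

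**Figure D3:**
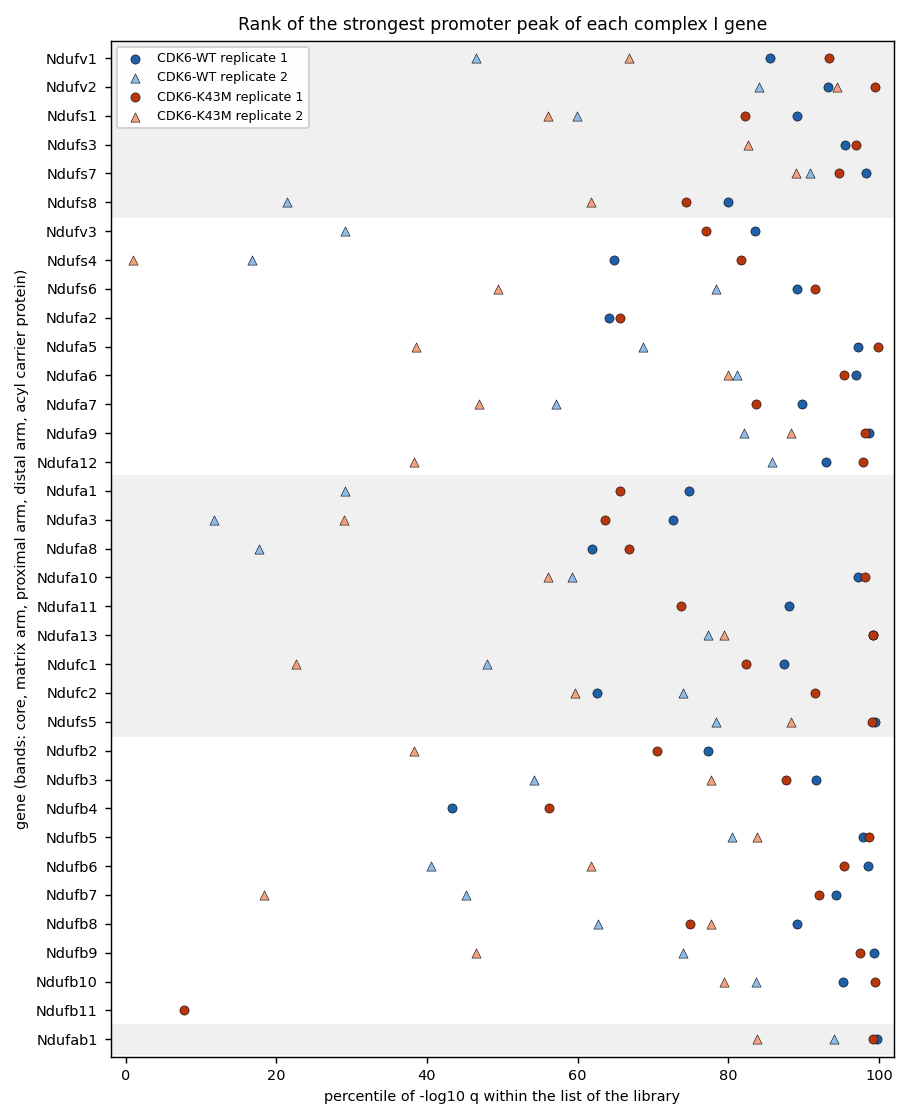
Each row is a complex I gene, ordered by role, and each point gives the percentile of its strongest promoter peak (x axis, 0 to 100, within the list of the library) in 1 of the 4 libraries. Circles (replicate 1) lie to the right of triangles (replicate 2) of the same variant at all but 2 genes, and a missing point means no peak.

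In the proximal part of the membrane arm, 8 of 9 accessory subunits had a region bound by both. Ndufs5, a subunit on the side of the intermembrane space, had percentiles of 99.4 and 78.4 in CDK6-WT and 99.1 and 88.3 in CDK6-K43M. Ndufa13, also known as GRIM-19, had 99.2 and 77.3 in CDK6-WT and 99.2 and 79.4 in CDK6-K43M. Its replicates of equal number differed by little between the variants. Ndufa3 was among the 5 lowest of the 26 members present in every list, with 72.7 and 11.8 in CDK6-WT and 63.6 and 29.0 in CDK6-K43M.

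Ndufc1 had percentiles of 87.5 and 48.0 in CDK6-WT and 82.4 and 22.6 in CDK6-K43M, lower in CDK6-K43M by -5.10 and -25.4 points. Of the 26 members present in every list, it was both among the 5 lowest by mean and among the 2 with the largest difference in favour of CDK6-WT in both numbers, together with Ndufb9. Ndufa11, a membrane subunit related to a mitochondrial import protein, was without a region bound by both. It had 88.0 and 73.7 in the replicate 1 lists of CDK6-WT and CDK6-K43M and no peak in replicate 2. Ndufa1 and Ndufa8 each lacked a peak only in CDK6-K43M replicate 2, and their CDK6-WT replicate 2 peaks were low, at 29.1 and 17.7. Ndufc2 had a mean percentile of 71.9.

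Ndufa10, a subunit related to nucleoside kinases, carried both a shared and a variant-unique region. The shared region (chr1:92473457-92474106) covered the start and had percentiles of 97.2 and 59.2 in CDK6-WT and 98.2 and 56.0 in CDK6-K43M. The region unique to CDK6-K43M (chr1:92474182-92474532) was centred 497 bp upstream of the start, with percentiles of 13.4 and 29.0 and 13 and 11 reads at its summits. It was thus a weak peak in both CDK6-K43M lists, next to a peak with 61 and 16 reads in the same libraries.

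In the distal membrane arm, 8 of 10 accessory subunits had a region bound by both. Ndufb9, which has an LYR motif and binds the acyl carrier protein, had percentiles of 99.3 and 74.0 in CDK6-WT and 97.5 and 46.5 in CDK6-K43M. It was lower in CDK6-K43M by -1.80 points in replicate 1 and -27.5 in replicate 2. Ndufb7, a subunit on the side of the intermembrane space, had 94.3 and 45.2 in CDK6-WT and 92.1 and 18.3 in CDK6-K43M. The members Ndufb5 and Ndufb10 had high means of 90.2 and 89.4, and Ndufb3, Ndufb6 and Ndufb8 had means of 77.8, 74.1 and 76.1.

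Ndufb2 lacked a peak in CDK6-WT replicate 2 alone, and was at 77.3, 70.6 and 38.2 in the other lists. Ndufb4 was without a region bound by both, at percentiles of 43.3 and 56.1 in the replicate 1 lists with 16 and 21 reads. Ndufb11 had peaks in CDK6-K43M replicate 1 alone. There were 2 in its promoter (chrX:20617684-20617841 and chrX:20618176-20618368), each at a percentile of 7.81 with 12 reads. It was the least bound of the 35 promoters. Ndufb11 and Ndufa1 are on the X chromosome, and Ndufa1 kept a peak in 3 lists.

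Ndufab1, the mitochondrial acyl carrier protein that also serves lipoic acid synthesis, had the highest mean percentile of the 26 members, 94.2. Its values were 99.8 and 94.1 in CDK6-WT and 99.2 and 83.9 in CDK6-K43M, with fold enrichments of 26.4, 12.4, 20.4 and 8.96. Both CDK6-WT values were higher than the CDK6-K43M value of the same number. The summits held 67 and 34 reads in CDK6-WT and 74 and 22 in CDK6-K43M. In replicate 1 the read number was thus higher in CDK6-K43M while the fold enrichment was lower. These read numbers are not corrected for depth, and the recovered depth of CDK6-K43M replicate 1 was 1.19 times that of CDK6-WT replicate 1.

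The summits lay close to the transcript starts. Of the 126 strongest peaks of the members over the 4 lists, 106 had their summit within 100 bp of the nearest start of the gene and 93 within 50 bp. Upstream of the start were 89 summits, downstream 36, and 1 was at the start itself. Within 100 bp lay 88.2% and 82.8% of the CDK6-WT summits and 82.9% and 82.1% of the CDK6-K43M summits, beside 63.3%, 54.0%, 63.1% and 53.6% over all genes with a promoter peak. The median distance over the 26 members was 26, 26.5, 24.5 and 19.5 bp, beside 64, 83, 63 and 85 bp. The variants differed by -4.25 bp, CDK6-K43M minus CDK6-WT (means 22.0 and 26.2 bp), the smallest p the design allows (exact two-sided permutation test, p = 0.33).

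The summits varied among the members in a way that often recurred between libraries. At Ndufab1 they lay between -25 and -13 bp of the start, and at Ndufb10 12 to 28 bp downstream in all 4 lists. At Ndufs4 they lay between -16 and 1 bp and at Ndufb7 28 to 44 bp downstream, but not from the same start in every list. The Ndufb7 summit of CDK6-K43M replicate 2 was at chr8:83566802, while the other libraries had it at 83566712, 83566699 and 83566708. The Ndufs4 summits ran from chr13:114388064 (CDK6-K43M replicate 2) to 114388096 (CDK6-WT replicate 1). At Ndufs8 they were 164 to 242 bp upstream, and at Ndufb2 166 to 208 bp downstream in its 3 lists. At Ndufs1 the strongest summits were 198 and 174 bp upstream in CDK6-WT and 5 and 12 bp upstream in CDK6-K43M, within a merged region of 886 bp. These distances were counted from more than 1 annotated start. Each replicate 1 list held a single peak over the region, and a split by variant was not tested. In replicate 2 both variants had a peak near either position. The weaker of the 2 was at a percentile of 54.2 beside 59.9 in CDK6-WT, and at 46.5 beside 56.0 in CDK6-K43M.

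**Figure D4:**
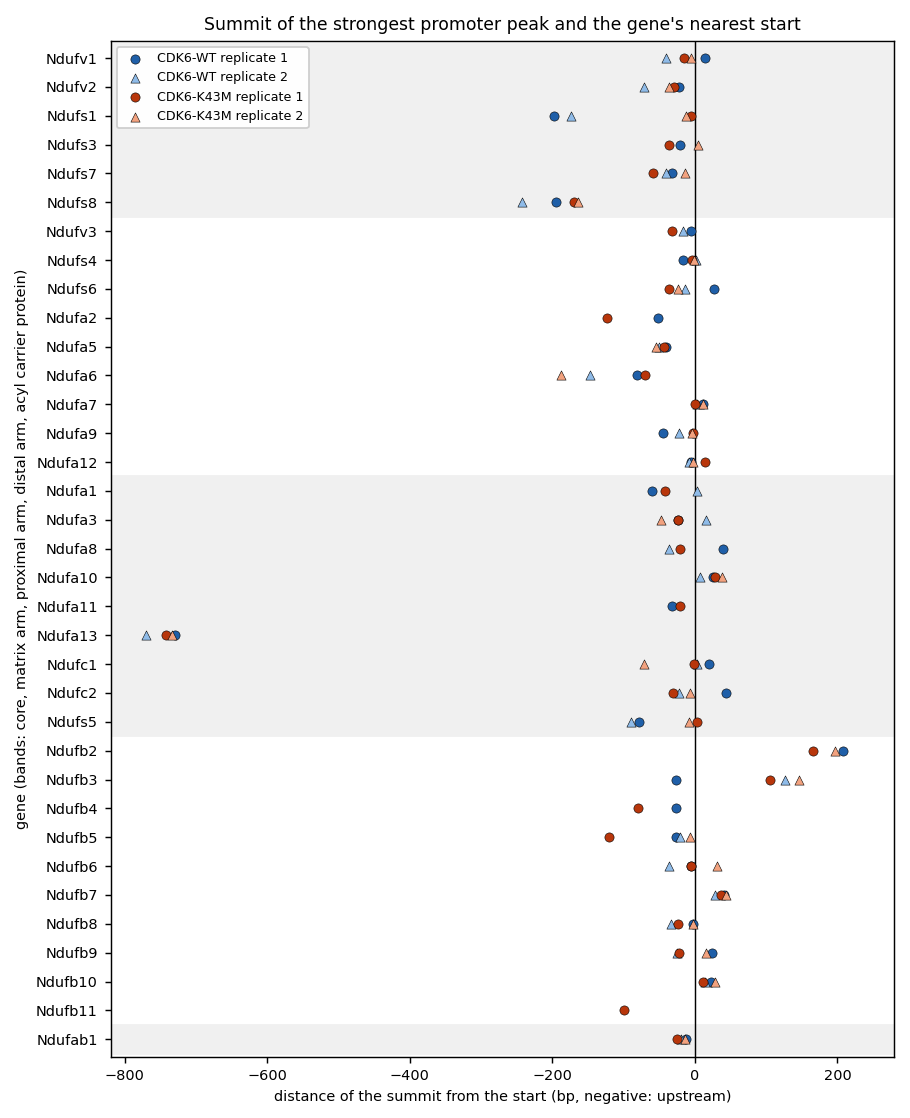
Each row is a complex I gene, ordered by role, and each point gives the distance of the summit of the strongest promoter peak from the gene's nearest start (x axis, bp, negative values upstream) in 1 of the 4 libraries. Most points fall within 100 bp of the start, and Ndufa13 stands apart at 730 to 770 bp upstream.

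Ndufa13 was the only member with summits over 500 bp away, at -730, -770, -742 and -734 bp. The merged region (chr8:69902474-69903490) reached the start of Ndufa13, and its strongest summit was 588 bp from the start of Yjefn3. Nearby starts on the opposite strand were frequent in the set. At 15 of 35 members (42.9%) a start of a protein-coding gene on the opposite strand lay within 1000 bp of a start of the member, beside 12.3% of all protein-coding genes. The share over all genes includes those without a promoter peak. The partners included Eef1b2 for Ndufs1 (8 bp between the nearest starts), Rps28 for Ndufa7 (10 bp), Rbm10 for Ndufb11 (3 bp), Tatdn1 for Ndufb9 (18 bp), Mrpl36 for Ndufs6 (51 bp), and Mrpl47 for Ndufb5 (157 bp). The count took starts to either side, so not every pair is a shared promoter, as for Tssk6 at 374 bp from the start of Ndufa13. A peak over starts that lie close together cannot be told apart by gene.

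The promoter sequences at the summits were rich in CpG, with a median ratio of observed to expected CpG of 0.870 (0.591 to 1.18) within 100 bp of the strongest summit, beside 0.827 for the 11364 other genes with a promoter peak. The GC content had a median of 61.7%, beside 63.7%. The YY1 motif was present at 7 of 35 members (20.0%), beside 3.22% of the other genes. These were Ndufs7, Ndufs8, Ndufs4, Ndufs6, Ndufa2, Ndufa9 and Ndufc1. Of these 7, 6 belong to the matrix arm, as do 6 core and 9 accessory subunits among all 35 members. Of the 7 sites, 6 had the orientation of the gene, and those 6 sites held an annotated start codon of the gene. Its ATG can be seen in the printed stretches of that orientation, and the stretch of Ndufa2 is not printed. Among the 376 sites in other genes, 67.6% had the orientation of the gene and 37.0% held a start codon. The first base of the site was at position 5 for Ndufs4, 4 for Ndufs6, 11 for Ndufa9, 32 for Ndufc1, 35 for Ndufa2 and -12 for Ndufs7. For Ndufs7 this was not counted from the start nearest its strongest summit (chr10:80249449), which lies before the site. Only the reverse site of Ndufs8 was far upstream, at -295.

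The carriers of the YY1 motif were found at both ends of the order by percentile. They included Ndufs7 and Ndufa9, among the 5 highest mean percentiles, and Ndufs4, Ndufs8 and Ndufc1, among the 5 lowest, both among the 26 members present in every list. The count depended on the window, since 2 members (5.71%, beside 1.19% of the other genes) held it within 50 bp of the summit and 8 (22.9%, beside 4.87%) within 200 bp. In the RefSeq promoters (GRCm38.p6, 250 bases before to 50 after the start), which matched 32 of the 35 members, 5 members held it, beside 1.64% of 27025 genes.

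The NRF-1 core was present at 3 members (8.57%), beside 3.95% of the other genes. It lay at position -64 in Ndufa11 and 60 in Ndufa8. In Ndufa13 it lay at -781, close to its distant summit. All 3 were accessory subunits of the proximal membrane arm, of which there are 9 among the 35 members. Of the 3, 2 were not in all lists. With 1 free position in the core (CGCANGCG, both strands) the count was 9 (25.7%), beside 17.4%, and added Ndufs6, Ndufa7, Ndufa12, Ndufs5, Ndufb4 and Ndufb10. The CCAAT box of NFY was present at 7 members (20.0%, beside 26.03%), the SP1 motif at 3 (8.57%, beside 13.3%), and the ETS motif, searched as CCGGAAGT, at Ndufs3 alone (2.86%, beside 8.87%). CREB, searched as TGACGTCA, was found at Ndufa10 (2.86%, beside 3.14%) and the E-box CACGTG at Ndufa7 (2.86%, beside 8.45%). The ERR motif TCAAGGTCA was at 0 members (0.150% of other genes) and the GFY motif CTACAATTC at 0 (0.757%). In the RefSeq promoters, the CREB motif was at 3 of the 32 matched members, beside 2.03% of 27025 genes, and the NRF-1 core at 2, beside 2.07%. The other counts there were 10 for NFY (41.1%), 5 for SP1 (12.9%), 2 for the E-box (8.09%) and 1 for ETS (4.31%). ERR (0.466%) and GFY (0.403%) were at 0 members. A motif is a match of letters in the window and was not tested for binding.

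**Figure D5:**
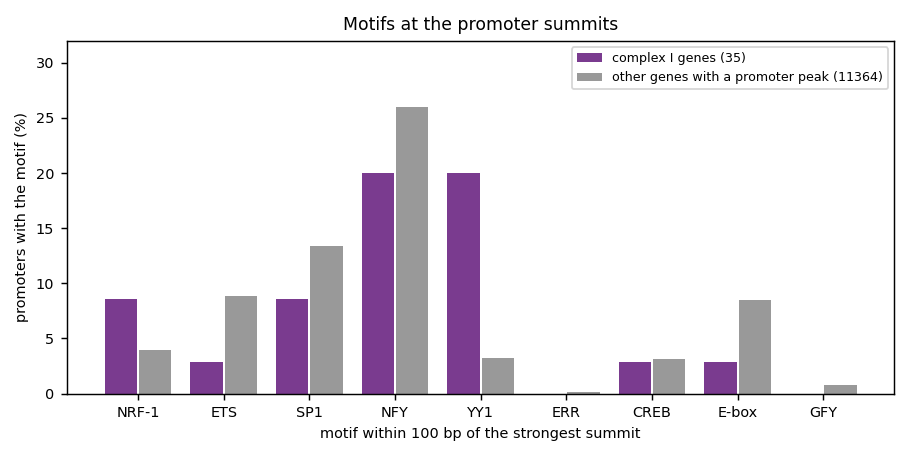
Bars give the share of promoters (percent, from 0) with each of 9 motifs within 100 bp of the strongest summit, for the 35 complex I genes and the 11364 other protein-coding genes with a promoter peak. The YY1 bar of complex I stands at 20.0% beside 3.22%, and the NFY bar at 20.0% beside 26.03%.

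Stricter lists separated the replicates further. With a minimum −log10 q of 10, CDK6-WT replicates 1 and 2 had a promoter peak at 33 and 14 members, and CDK6-K43M replicates 1 and 2 at 34 and 12. All protein-coding genes then had a peak at 38.6%, 15.8%, 39.9% and 13.7%, against 94.3%, 40%, 97.1% and 34.3% of the members. Among the strongest 10% of each list were 17 and 2 members in CDK6-WT and 19 and 1 in CDK6-K43M, which were 50%, 6.90%, 54.3% and 3.57% of the members with a peak. Over all genes with a promoter peak the shares were 27.7%, 8.48%, 29.5% and 9.03%. The replicate 2 shares rest on 2 members and 1 member.

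The other nuclear genes of the pathway gave similar counts. The 40 genes of complexes II to V were subunits, apart from the ATP synthase inhibitor Atpif1, which was counted with complex V. CDK6-WT replicates 1 and 2 had promoter peaks at 40 and 34 of them, and CDK6-K43M replicates 1 and 2 at 40 and 29. Of the 40, 36 had a shared region, and the exceptions Uqcrq, Cox7b, Atp5b and Atp5c1 had peaks in replicate 1 of both variants alone. All 4 lists held a peak at 27 of the 40. Of 15 complex I assembly factors, which help build the complex but are not part of it, CDK6-WT had peaks at 13 in either replicate and CDK6-K43M at 15 and 10, and 12 had a region bound by both, without Ndufaf8, Ecsit and Nubpl. None of these genes carried a region unique to a variant. The 7 B-lineage genes Cd79a, Cd79b, Pax5, Ebf1, Vpreb1, Igll1 and Rag1 had promoter peaks at 6 and 7 in CDK6-WT replicates 1 and 2 and at 6 and 7 in CDK6-K43M, and Rag1 lacked one in both replicate 1 lists.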

How the data were processed

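ChIP-seq with an anti-HA antibody was performed on cells crosslinked with DSG and formaldehyde. Per the labels and the study's methods, adapter trimming by the authors used Trimmomatic 0.36 and the aligner to mm10 was BWA 0.7.15. Blacklisted regions, multimappers and poorly mapped reads were then taken out with bedtools and SAMtools 1.3.1, and MACS2 2.1.0 called peaks at default settings in each library, without pooling. Each deposited peak has a fold enrichment (a ratio over background), a −log10 p-value, a −log10 q-value, an integer score made from the −log10 q, and the summit offset as other information. The lists hold no read totals. The reads at each summit and the relative depths were recovered from the deposited fold and −log10 p, and at least 99.997% of the peaks in each list matched a whole read number within 0.001 of the −log10 p.

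Per gene and list, the promoter peak with the highest −log10 q was used, and the percentile was taken within the list. For differences between variants an exact two-sided permutation test was used. All 35 members are accounted for, and described in full are those without a shared region or with a variant-unique one, the 5 highest and 5 lowest by mean percentile, those with the NRF-1 core and the 2 with the largest variant difference in each direction. The members, lists and motifs were chosen with earlier results of these data known. Alternatives were other thresholds, list lengths, promoter windows and motif windows, the replicate block and leaving out each library. Scripts used Python 3.11.15 with pysam 0.24.0, scipy 1.17.1, pandas 2.3.3 and numpy 2.4.6 and were tested on simulated lists. Intervals cover counting error only. One B-lineage marker is not reported here.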

Additional observations from a re-analysis of the deposited data

How the results depend on the processing

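None of the differences between the variants could pass a threshold with 2 libraries each, so the alternatives bear on direction and size. The count of members with a region bound by both, 31, was 26 to 31 under other promoter windows, merging, equal list lengths, a minimum −log10 q of 5 or a peak in all 4 lists, 26 to 29 when a library was left out and all 3 others had to hold a peak, 17 if the −log10 q had to reach 10, and 15 when each list was limited to its 10000 strongest peaks. The difference in median percentile, -4.17, turned to 0.51 with a −log10 q of at least 5 (21 members in every list), and to 1.26 both with a −log10 q of at least 10 and with the 10000 strongest peaks (9 members). It ran from -20.8 to 15.5 when a library was left out, and was positive without CDK6-WT replicate 1 (7.05) and without CDK6-K43M replicate 2 (15.5). The difference in median fold enrichment, 0.18, was -0.18 with a −log10 q of at least 5, and ran from -4.65 to 4.20 when a library was left out, with -3.44 without CDK6-WT replicate 2 and -4.65 without CDK6-K43M replicate 1. The difference in members with a peak, 0, ran from -3.5 to 3.5 and that in summit distance, -4.25 bp, from -6.75 to -1.0 bp when a library was left out. The summit distance differed more with a −log10 q of at least 5 (-10.5 bp, 21 members), and by -14.5 bp both for a −log10 q of at least 10 and for the 10000 strongest peaks (9 members). The NRF-1 count of 3 was 9 with 1 free position in the core. The YY1 windows of 50 and 200 bp were added after seeing the data. With the replicate block the differences were 0 members, -4.17 percentile points, 0.18 in the median fold enrichment and -4.25 bp (p = 1, 1, 1 and 0.5, exact sign-flip permutation test), and the block changed no call. Deviations between the replicate numbers correlated between the variants with r = 0.316 over the 26 members and 0.573 over 7312 genes, but with 2 pairs a shared number does not pair the libraries. A promoter without a listed peak may hold reads below the MACS2 threshold, which these lists do not show.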
